A study of Mus musculus with 4 samples.

Results

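The cathepsins are proteases of the lysosome, and 10 of their genes were followed here in sorted Müller glial cells: *Ctsa*, *Ctsb*, *Ctsc*, *Ctsd*, *Ctsf*, *Ctsh*, *Ctsk*, *Ctsl*, *Ctss* and *Ctsz*. They are 10 of the 24322 gene symbols with an FPKM value. They were taken by family name, and the family was chosen by the measured FPKM of *Ctsh*, known to be lower in *Rax* iCKO cells of these same libraries. Their difference between genotypes is therefore a description with no test, and the question was whether the difference of *Ctsh* was shared by the other 9. FPKM (fragments per kilobase of transcript, scaled to the mapped reads of a library) is a level per length, so that levels of different genes can be set side by side.

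The libraries were made from retinal cells positive for mTFP, isolated by FACS at P14 after tamoxifen at P4. Both groups carried *Rlbp1-CreERT2*, in which a promoter of the Müller glial gene *Rlbp1* drives an inducible Cre, and the reporter R26-CAG-LoxP-mTFP1, and the strain label was 129S6 for all. Control mice (numbers 7984 and 3911) had the genotype *Rax* flox/WT, so 1 floxed allele was present in them too, and *Rax* iCKO mice (numbers 7983 and 3914) were *Rax* flox/flox. The labels give each library 1 mouse number, and n is 2 libraries per group throughout. *Rax*, the targeted homeobox gene, was 189.1 and 181.4 FPKM in control cells and 111.4 and 98.4 FPKM in *Rax* iCKO cells, so its FPKM was lower in both. A single FPKM value for a gene does not show how much intact transcript remained. The study reported a marked decrease of *Rax* by RT-PCR in sorted mTFP-positive cells at P14, and less Rax by immunostaining.

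Most cathepsins are made as inactive proenzymes, carry mannose 6-phosphate that directs them to the lysosome, and become active in its acid lumen. Cysteine cathepsins share the papain fold and a catalytic cysteine, cathepsin D uses a pair of aspartates, and cathepsin A uses a serine. Endopeptidases such as cathepsins L and S cut within a protein, whereas cathepsin H trims residues from the N terminus and cathepsin Z from the C terminus. In the retina, glia and the pigment epithelium take up and digest material shed by neurons, and microglia, the resident macrophages, are rich in cathepsin S.

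The coding sequence around the catalytic cysteine shows the split within the family. It was found in 8 of the 10 genes and in neither *Ctsa* nor *Ctsd*. The stretches below are each 33 bases of the coding strand from GENCODE transcripts on GRCm38. Capitals mark the codon of the first cysteine in the stretch. The catalytic cysteine is the next one, in lower case directly before tgg. Shown are *Ctsh*, the member closest to it (*Ctss*, 24 of 33 bases identical), *Ctsl* (19 of 33) and the most distant one (*Ctsz*, 18 of 33).
Ctsh: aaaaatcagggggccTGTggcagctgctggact
Ctss: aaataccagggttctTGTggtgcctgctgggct
Ctsl: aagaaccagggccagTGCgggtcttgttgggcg
Ctsz: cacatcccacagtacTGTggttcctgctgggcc
In 7 of the 8 genes this stretch is joined from the ends of neighbouring exons, 5 and 6 in *Ctsh* (chr9:90064249-90064530, plus strand), 4 and 5 in *Ctss* (chr3:95543154-95545356, plus strand) and 5 and 6 in *Ctsl* (chr13:64367069-64367868, minus strand). In *Ctsz* it lies within exon 2 (chr2:174438190-174438222, minus strand). No run of 49 or more bases was shared between transcripts of any pair of the 10 genes.

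The genes are spread over 7 chromosomes. *Ctsh* lies on chromosome 9 (GRCm38, 90054267 to 90076095, plus strand). *Ctsk* and *Ctss* are neighbours on chromosome 3, with a gap of 17.4 kb between them, whereas *Ctsa* and *Ctsz* on chromosome 2, and *Ctsc* and *Ctsd* on chromosome 7, are far apart. *Ctsb* shares a run of 774 bases with *Fdft1*, *Ctsa* one of 324 bases with *Neurl2* and *Ctsl* one of 977 bases with *Gm47123*, each on the opposite strand, and *Ctsd* one of 671 bases with *Gm49369* on its own strand. The library kit does not mark the strand, so part of the reads of these 4 genes cannot be told from those of the partner. *Ctsc* and *Ctsz* also overlap a gene on the opposite strand, *Gm26522* and *Nelfcd*. No annotated gene overlaps *Ctsh*, *Ctsf* or *Ctsk*, and the longest runs that *Ctsh* and *Ctsc* share with any other gene are 52 bases with *Xpnpep1* and 66 bases with *Gm17396*.

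The Müller glial label was checked against markers. The summed FPKM of 16 Müller glial markers was 13491 and 9948 in control cells and 8694 and 8212 in *Rax* iCKO cells, with *Rlbp1* (2616, 2159, 1292 and 1560 FPKM in control 7984, control 3911, *Rax* iCKO 7983 and *Rax* iCKO 3914) and *Crym* (2199, 2053, 1389 and 1520) the most abundant. In the same order of libraries, 8 bipolar cell markers summed to 3666, 8493, 4922 and 7136 FPKM, mostly from *Pcp2*, and 10 rod markers to 1540, 1543, 1052 and 901, so the sorted cells also held RNA of neurons. The libraries differ by sex-linked genes as well: *Xist* was 24.5 and 21.2 FPKM in control cells and 0.0119 and 0.00605 in *Rax* iCKO cells, and the Y-linked *Eif2s3y* was 43.7 FPKM in *Rax* iCKO 7983 and listed at 0 in the other libraries. The depth, estimated from low FPKM values, was about 12720000, 9270000, 9430000 and 9300000 mapped reads. In these bulk libraries a smaller number of cells of a type and less RNA per cell cannot be told apart.

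*Ctsh*, an aminopeptidase also known for maturing surfactant proteins in the lung, was 152.7 FPKM in control 7984 and 145.5 in control 3911. It was 51.7 FPKM in *Rax* iCKO 7983 and 49.95 in *Rax* iCKO 3914. The values lay close together within each genotype and far apart between them. Control cells averaged 149 ± 5.14 FPKM (SD, n = 2) and *Rax* iCKO cells 50.8 ± 1.22 FPKM (SD, n = 2), a ratio of 0.341. The log2 fold change, on the scale of log2(FPKM + 1) here and throughout, was −1.53 (SE 0.20). The mice fall into runs of neighbouring numbers, and the difference was −1.55 within 7983 and 7984 and −1.52 within 3914 and 3911. About 2800 and 1900 reads lay behind the control values and about 690 and 660 behind the *Rax* iCKO values, so counting error is small. *Xist* separates the genotypes in the same libraries, so sex-linked differences and the genotype cannot be told apart here. Of the 12363 genes averaging 1 FPKM or more, the set tested here, 29 had a lower log2 fold change than *Ctsh*.

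**Figure D1:**
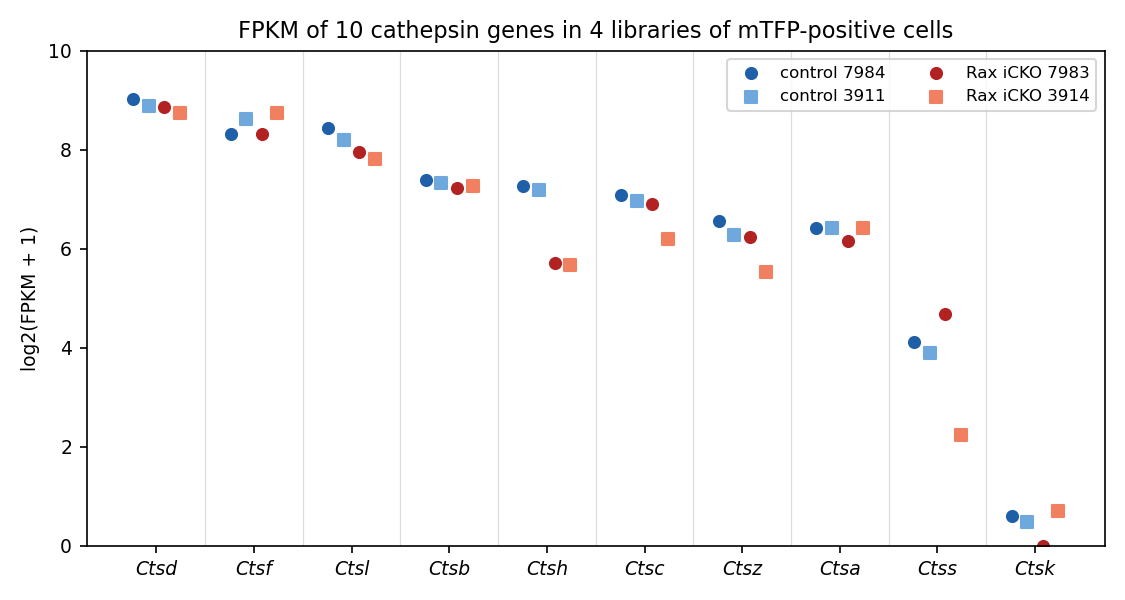
log2(FPKM + 1) of the 10 cathepsin genes in each of the 4 libraries, ordered by mean level, with circles for mice 7984 and 7983 and squares for mice 3911 and 3914. Blue points are control and red points *Rax* iCKO, and the *Rax* iCKO points lie below both control points for 6 of the 10 genes, among them *Ctsh* at 51.7 and 49.95 FPKM against 152.7 and 145.5.

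Of the cysteine endopeptidases, *Ctsl* differed more than *Ctsb* and *Ctsf*. *Ctsl*, a broad-range protease of the lysosome, was 345.1 and 293.5 FPKM in the controls and 247.5 and 222.9 FPKM in *Rax* iCKO cells. Both *Rax* iCKO values were below both control values, with means of 319 ± 36.5 and 235 ± 17.4 (SD, n = 2), a ratio of 0.737 and a log2 fold change of −0.44 (SE 0.24). The difference had a similar size in both runs of mouse numbers, −0.48 and −0.40.

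*Ctsb*, which acts both within chains and as a dipeptidase at the C terminus, hardly differed. It was 165.6 and 158.9 FPKM in the controls and 148.7 and 153.0 in *Rax* iCKO cells, a ratio of 0.930 and a log2 fold change of −0.10 (SE 0.21). The groups did not overlap, but the gap between them, 158.9 against 153.0, was about the size of the spread within each. *Ctsf*, an endopeptidase also able to process the MHC class II invariant chain, was 317.2 and 393.6 FPKM in the controls and 319.2 and 427.8 in *Rax* iCKO cells. Its groups overlapped, and it was the only tested cathepsin of the 10 with a log2 fold change above 0 (0.06, SE 0.29), though *Ctsb* and *Ctsd* also turned above 0 after quantile normalization. Its higher values were those of mice 3911 and 3914, in both genotypes.

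*Ctsc* and *Ctsz*, exopeptidases like *Ctsh*, were lower on average, with unequal *Rax* iCKO libraries. *Ctsc*, the dipeptidyl peptidase that activates serine proteases of immune granules, was 135.3 and 123.4 FPKM in control, 118.5 in *Rax* iCKO 7983 and 72.3 in *Rax* iCKO 3914. Its log2 fold change was −0.48 (SE 0.29), made of −0.19 and −0.76 in the runs of mouse numbers. *Ctsz*, a carboxypeptidase prominent in cells of the monocyte lineage, was 93.9 and 76.5 FPKM in control, 73.9 in *Rax* iCKO 7983 and 45.3 in *Rax* iCKO 3914. Its log2 fold change was −0.54 (SE 0.29), with −0.34 and −0.74 in the runs. For both genes the groups were separate, and the value nearest to control came from mouse 7983.

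*Ctss* and *Ctsk*, neighbours on chromosome 3, were the least abundant. *Ctss* was 16.3 and 13.8 FPKM in control cells, 24.8 in *Rax* iCKO 7983 and 3.71 in *Rax* iCKO 3914. The *Rax* iCKO libraries thus lay on either side of control, and the means of 15.04 ± 1.77 and 14.3 ± 14.9 (SD, n = 2) did not differ beyond their spread. The log2 fold change was 0.58 within the first run and −1.65 within the second. *Ctsk*, the collagen-degrading cathepsin of osteoclasts, was 0.511 and 0.390 FPKM in control, 0.621 in *Rax* iCKO 3914 and listed at 0 in *Rax* iCKO 7983. Its values rest on an estimated 8.5 reads or fewer, its mean of 0.380 FPKM was under the minimum of 1, and a difference could not be seen at this depth.

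The cathepsins that are not cysteine proteases differed little. *Ctsd*, the aspartic endopeptidase whose loss causes a neuronal storage disease, was the most abundant of the 10, at 523.3 and 470.9 FPKM in the controls and 463.2 and 426.9 in *Rax* iCKO cells. Its groups were separate, with a ratio of 0.895 and a log2 fold change of −0.16 (SE 0.26). The spread between control libraries, 37.0 FPKM (SD), was of the same order as the difference between the means, 497 and 445. *Ctsa*, a serine carboxypeptidase that also shields lysosomal β-galactosidase and neuraminidase from breakdown, was 84.2 and 84.3 FPKM in control, 70.2 in *Rax* iCKO 7983 and 84.6 in *Rax* iCKO 3914. Its groups overlapped, with a difference of −0.26 within the first run and 0.00 within the second.

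Of the 10 genes, 6 had both *Rax* iCKO values below both control values (*Ctsb*, *Ctsc*, *Ctsd*, *Ctsh*, *Ctsl* and *Ctsz*), none had both above, and 4 overlapped. Over all tested genes, 14.1% had both *Rax* iCKO values below and 15.4% had both above. The same 6 genes were below when the libraries were scaled to equal medians, whereas after quantile normalization, which gives each library the same distribution of values, *Ctsh* alone was below in both libraries. By mean FPKM, *Ctsh* was the only one of the 10 more than 2-fold lower, a size passed by 1.02% of the tested genes. The median log2 fold change was −0.44 over the 9 tested cathepsins and −0.30 without *Ctsh*, with a range of −0.54 to 0.06 for the other 8. Beside these, the median was −0.00 over all tested genes. It was −0.31 over the 16 Müller glial markers, −0.64 over the 10 rod markers and 0.34 over the 8 bipolar cell markers. As the contrast chose the family, these counts only describe it.

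**Figure D2:**
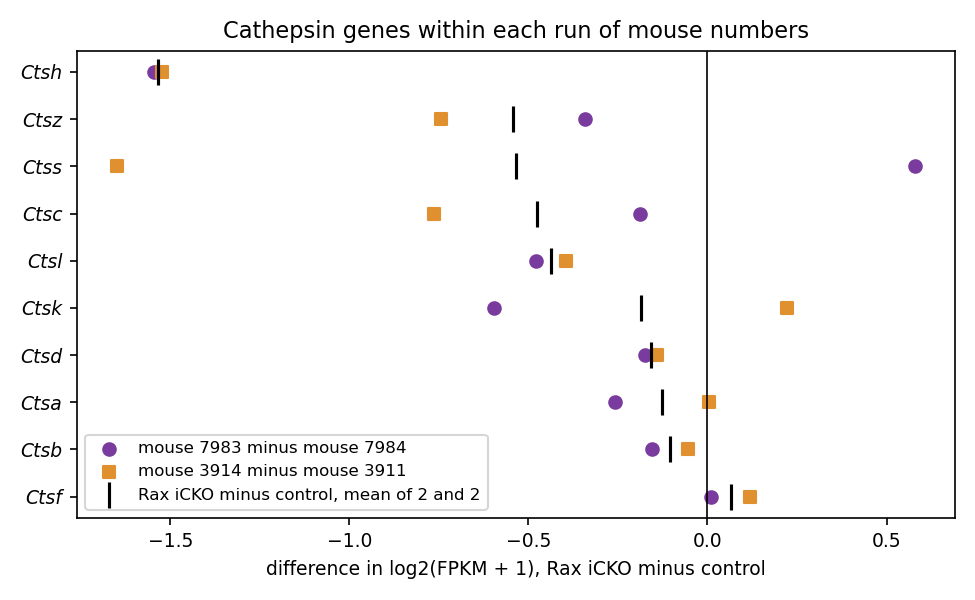
Difference in log2(FPKM + 1), *Rax* iCKO minus control, for each cathepsin gene within mice 7983 and 7984 (circles) and within mice 3914 and 3911 (squares), with the mean as a bar. The points of *Ctsh* coincide at −1.55 and −1.52, those of *Ctsl* lie at −0.48 and −0.40, and those of *Ctss* lie far apart at 0.58 and −1.65.

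In control cells the order of mean levels was *Ctsd*, *Ctsf*, *Ctsl*, *Ctsb*, *Ctsh*, *Ctsc*, *Ctsz*, *Ctsa*, *Ctss* and *Ctsk*. The ranges of the control libraries overlapped for the neighbours *Ctsf* and *Ctsl*, and for *Ctsz* and *Ctsa*, and were separate for the other neighbours. The rank of *Ctsh* among the 10 was 5 in both control libraries, 8 in *Rax* iCKO 7983 and 7 in *Rax* iCKO 3914. In *Rax* iCKO cells its range overlapped that of *Ctsz*, its nearest neighbour above.

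Shares within the family need no scaling between libraries. The 10 genes summed to 1834 and 1761 FPKM in the controls and 1518 and 1487 in *Rax* iCKO cells, and without *Ctsh* to 1681, 1615, 1466 and 1437. The share of *Ctsh* in the sum was 8.33% and 8.26% in the controls and 3.40% and 3.36% in *Rax* iCKO cells. Of the other 9 genes, as shares of their own sum, only *Ctsl* was lower in both *Rax* iCKO libraries (20.5% and 18.2% against 16.9% and 15.5%), and *Ctsb* was slightly higher in both (9.85% and 9.84% against 10.1% and 10.6%). The remaining 7 overlapped. *Ctsh* per *Ctsb*, a ratio of FPKM that no library scale can move, was 0.922 and 0.916 in the controls and 0.348 and 0.327 in *Rax* iCKO cells. The ratio of *Ctsh* to each of the other 8 tested cathepsins was lower in both *Rax* iCKO libraries for 7 of them. The exception was *Ctsh* per *Ctss*, at 9.38 and 10.6 in the controls, 2.08 in *Rax* iCKO 7983 and 13.5 in *Rax* iCKO 3914.

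**Figure D3:**
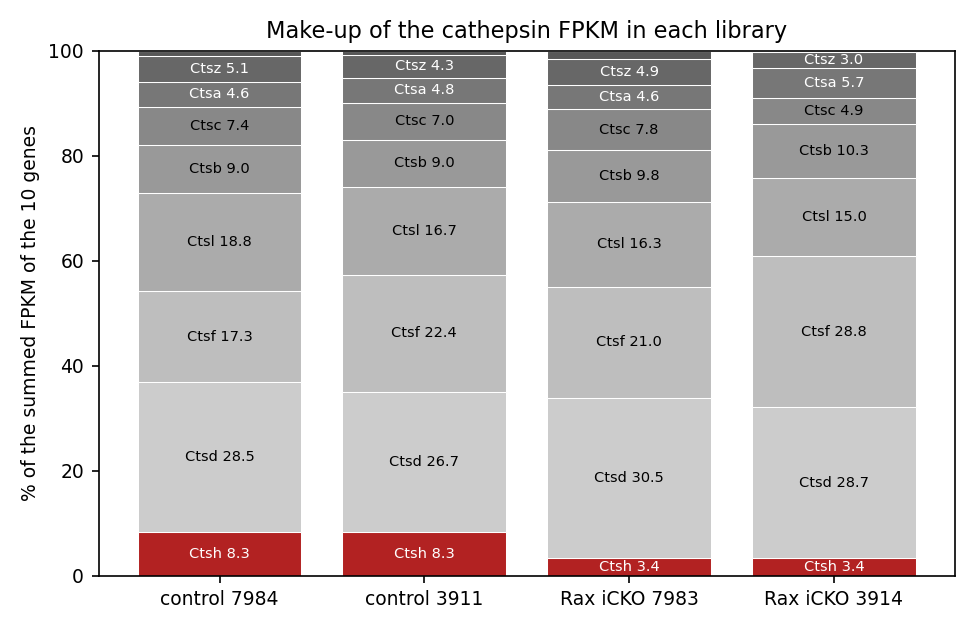
Share of each cathepsin gene in the summed FPKM of the 10 genes, in percent, for each of the 4 libraries, with *Ctsh* in red at the base. *Ctsh* takes 8.33% and 8.26% in the control libraries and 3.40% and 3.36% in the *Rax* iCKO libraries.

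Because *Ctss*, *Ctsc* and *Ctsz* are also genes of microglia, markers of these cells were set beside them. The summed FPKM of 21 microglial markers was 68.3 and 72.3 in control cells, 110.6 in *Rax* iCKO 7983 and 20.7 in *Rax* iCKO 3914. Of these 21 markers, 19 were lowest in *Rax* iCKO 3914 and 16 were highest in *Rax* iCKO 7983, and none was at 0 in all libraries. *C1qb*, a complement component, was 12.9, 14.6, 24.4 and 4.74 FPKM in control 7984, control 3911, *Rax* iCKO 7983 and *Rax* iCKO 3914. *Ctss* had the same order of *Rax* iCKO libraries, with 24.8 in 7983 and 3.71 in 3914, and *Ctsc* and *Ctsz* were also lower in 3914 than in 7983. The order alone was not particular to them, since 6 of the 10 genes, *Ctsd*, *Ctsh* and *Ctsl* included, were lowest in *Rax* iCKO 3914. The sizes were unequal. From *Rax* iCKO 7983 to *Rax* iCKO 3914, *Ctsc* fell from 118.5 to 72.3 FPKM and *Ctsz* from 73.9 to 45.3. Between the same libraries *Ctsd* fell only from 463.2 to 426.9 FPKM and *Ctsl* from 247.5 to 222.9. *Ctsa*, *Ctsb*, *Ctsf* and *Ctsk* were higher in *Rax* iCKO 3914 than in *Rax* iCKO 7983. The part of microglial RNA in the cathepsin values was not tested. Beside the microglial sums of 110.6 and 20.7 FPKM, *Ctsh* was 51.7 FPKM in *Rax* iCKO 7983 and 49.95 in *Rax* iCKO 3914.

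**Figure D4:**
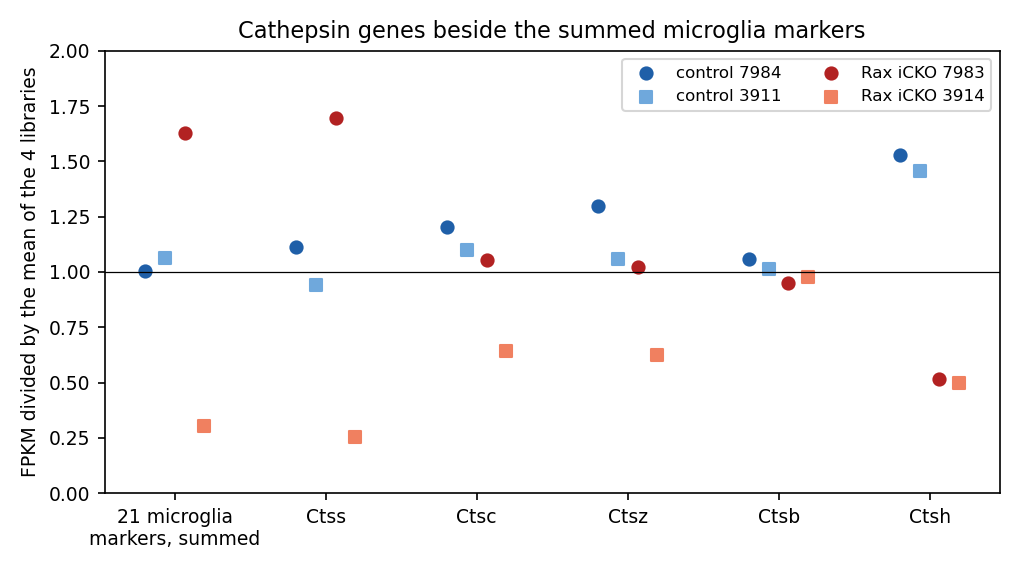
FPKM in each library divided by the mean of the 4 libraries, for the sum of 21 microglial markers and for *Ctss*, *Ctsc*, *Ctsz*, *Ctsb* and *Ctsh*. The marker sum and *Ctss* are highest in *Rax* iCKO 7983 and lowest in *Rax* iCKO 3914, whereas both *Rax* iCKO points of *Ctsh* lie together below its control points.

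Markers of 4 other groups of cells were also summed. Endothelial markers summed to 501, 257, 416 and 271 FPKM in control 7984, control 3911, *Rax* iCKO 7983 and *Rax* iCKO 3914, mostly from *Kdr* (464, 228, 385 and 241). The other markers of this list had means from 0.0682 FPKM (*Cdh5*) to 18.4 FPKM (*Flt1*), and 4 of the 8, namely *Cdh5*, *Tek*, *Pecam1* and *Cldn5*, were under 1 FPKM. Markers of amacrine and ganglion cells, led by *Pax6* and *Slc6a9* and with *Pou4f1* listed at 0, summed to 85.3, 62.0, 76.5 and 53.4 FPKM. Those of neutrophils and monocytes summed to 36.7, 6.92, 23.5 and 4.42 FPKM, and those of the pigment epithelium to 3.08, 6.12, 5.84 and 9.55 with *Mlana* at 0. The sums of these 4 lists overlapped between genotypes. Those of the Müller glial and rod markers did not, both being lower in *Rax* iCKO cells. Both *Rax* iCKO values were below both control values in 9 of 10 rod markers, among them *Sag* and *Gnat1*, and in 3 of 16 Müller glial markers, beside 14.1% of all tested genes. The part of either in the cathepsin values was not tested.

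Genes that work with the cathepsins were not part of the rule that chose the family and were tested with limma. Their lists were still drawn up with earlier results of these data known. Of 113 listed genes 81 were tested, and none had an adjusted p under 0.05 (the smallest was 0.9999, limma with Benjamini-Hochberg adjustment). Over all tested genes 3 did, or 0.0243%, namely *Xist*, *Mir6538* and *Mir568*, which are named here after their values were seen. At an unadjusted p under 0.05 there were 2 of the 81 genes, *Atp6v0e* and *H2-Ab1*, beside 2.86% of all tested genes. Both *Rax* iCKO values were below both control values in 21 of the 81 and above in 8, beside 14.1% and 15.4% of all tested genes, and the median log2 fold change was −0.08.

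No other cathepsin was abundant except *Ctso*, a little-studied cysteine cathepsin. *Ctso* was 71.0 and 54.9 FPKM in the controls and 54.1 and 46.7 in *Rax* iCKO cells, with a log2 fold change of −0.31 (SE 0.23) and an adjusted p of 0.9999 (limma). Of the 13 other cathepsins 8, all on chromosome 13, were listed at 0 in every library. Among the other lysosomal peptidases, *Lgmn*, the asparaginyl endopeptidase that processes procathepsins, was 116.9 and 161.9 FPKM in the controls and 128.3 and 153.7 in *Rax* iCKO cells. *Tpp1*, a tripeptidyl peptidase, was 95.0 and 72.5 against 101.5 and 80.6. The 5 tested peptidases had a median log2 fold change of 0.03. Only *Scpep1* had both *Rax* iCKO values below control, beside 14.1% of all tested genes.

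The natural inhibitors of cysteine cathepsins are the cystatins. *Cst3*, cystatin C, the secreted inhibitor, was 614.8 and 824.3 FPKM in the controls and 516.6 and 491.6 in *Rax* iCKO cells, more abundant than any of the cathepsins. Its groups did not overlap, but with a log2 fold change of −0.50 (SE 0.30) it did not pass the test (limma, adjusted p = 0.9999). *Cstb*, the cytosolic cystatin B, was 138.2 and 202.3 against 113.7 and 152.2 FPKM, with overlapping groups and a log2 fold change of −0.34. The remaining 13 of 15 inhibitors were under a mean of 1 FPKM, and 9 of them were listed at 0 in all libraries.

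The other enzymes of the lysosome, 32 glycosidases, sulfatases, lipases and their activators, were all tested, with a median log2 fold change of −0.10. Both *Rax* iCKO values were below control in 8 of them and above in 3, beside the same 14.1% and 15.4% of all tested genes. *Psap*, the precursor of the saposins, was 275.6 and 259.0 FPKM in the controls and 223.8 and 254.5 in *Rax* iCKO cells, and *Ppt1*, a thioesterase, was 179.2 and 167.3 against 151.3 and 162.2. *Galns* had the lowest log2 fold change of the list, −0.53, at 2.75 and 2.96 against 1.78 and 1.57 FPKM.

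The 28 genes of the lysosomal membrane and its proton pump had a median of −0.04, with 9 below and 4 above, beside 14.1% and 15.4% of all tested genes. *Cd63*, a tetraspanin, was 593.3 and 549.2 FPKM in the controls and 459.0 and 505.1 in *Rax* iCKO cells, and *Atp6v0b*, a pump subunit, was 371.8 and 485.4 against 396.7 and 458.4. *Atp6v0e* and *Atp6v0c*, subunits of the same membrane sector of the pump, differed in opposite directions. *Atp6v0e* was 161.1 and 175.5 FPKM against 98.7 and 116.8 (log2 fold change −0.64, adjusted p = 0.9999 by limma). *Atp6v0c* was 100.3 and 139.0 against 169.1 and 150.6 (0.43, adjusted p = 0.9999 by limma).

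Genes that sort lysosomal enzymes or control their transcription overlapped in all 9 tested cases, with a median log2 fold change of 0.04. *M6pr*, the small mannose 6-phosphate receptor, was 60.1 and 63.6 FPKM in the controls and 57.2 and 67.8 in *Rax* iCKO cells. *Gnptg*, a subunit of the enzyme that begins the mannose 6-phosphate tag, was 91.3 and 116.4 against 90.9 and 123.4. Among partners of cathepsin S in antigen presentation, *H2-Ab1*, an MHC class II chain, was 11.95 and 12.6 FPKM in the controls and 4.91 and 6.71 in *Rax* iCKO cells. Its log2 fold change was −0.98 (SE 0.25) with an adjusted p of 0.9999 by limma, and an adjusted p of 0.0492 by limma once the runs of mouse numbers entered as a replicate block. *Ifi30*, a lysosomal thiol reductase, lay the other way, at 7.94 and 6.62 against 9.77 and 12.6 FPKM (adjusted p = 0.9999 by limma).

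**Figure D5:**
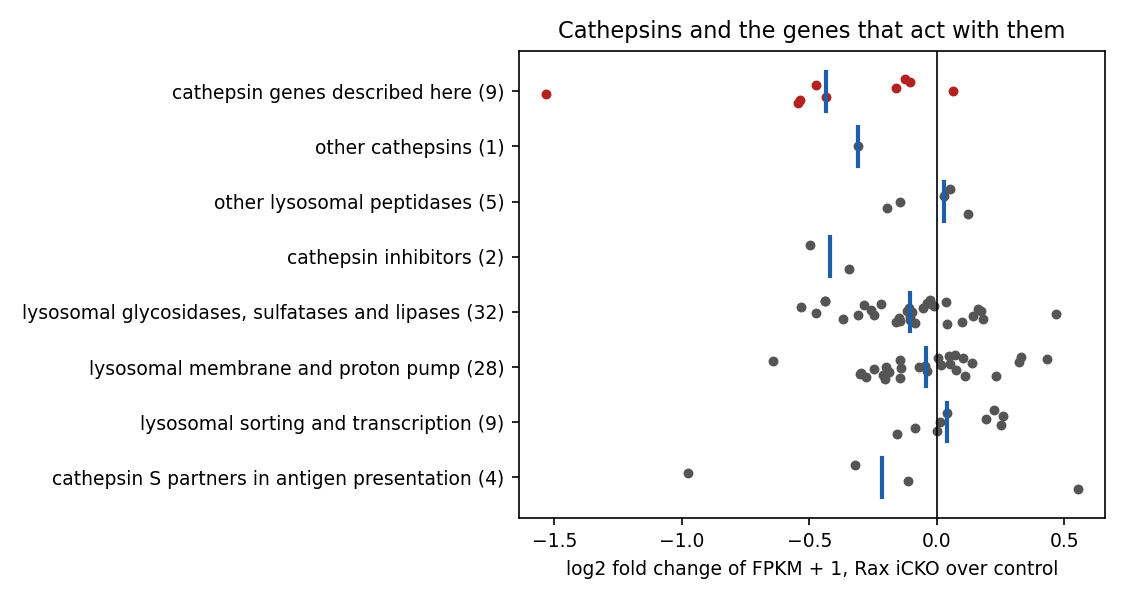
log2 fold change of FPKM + 1, *Rax* iCKO over control, for the 9 tested cathepsin genes (red) and for the tested genes of 7 lists of genes that act with them (grey), with the median of each row as a blue bar and the number of genes in brackets. *Ctsh*, at −1.53, lies to the left of all of them, and the medians of the lists lie between −0.42 and 0.04.

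Across the 4 libraries the genes with values most like *Ctsh*, by Euclidean distance between centred log2(FPKM + 1) values over 12362 genes, were *Socs3* (0.321), *Ifitm2* (0.335), *Optc* (0.345), *Cebpd* (0.415) and *Rpl26* (0.442). *Socs3*, a feedback inhibitor of cytokine signalling, was 29.1 and 28.6 FPKM in the controls and 9.27 and 6.803 in *Rax* iCKO cells. *Ifitm2*, a membrane protein induced by interferon, was 46.1 and 49.9 against 19.9 and 19.9. *Optc*, a small proteoglycan of the vitreous, was 3.51 and 4.42 against 1.07 and 0.994. *Rpl26* is a ribosomal protein gene, and reads of such genes may be split with processed copies. The cathepsins nearest to *Ctsh* were *Ctsz* and *Ctsl*, at ranks 436 and 439, and *Ctss* was at rank 11045.

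The neighbours of *Ctsh* on chromosome 9 did not share the size of its difference. *Morf4l1*, a chromatin protein gene that starts 15.6 kb after it, was 172.6 and 258.5 FPKM in the controls and 143.5 and 180.7 in *Rax* iCKO cells, with overlapping groups and a log2 fold change of −0.39. *Tmed3*, a gene of vesicle traffic 349 kb before it, was 88.0 and 85.0 against 62.0 and 51.3, with a log2 fold change of −0.61. *Rasgrf1*, 27.3 kb before it, was under 1 FPKM in all libraries, as was *Ankrd34c*, and *Adamts7* and *Tbc1d2b* were between 0.507 and 2.29 FPKM.

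Promoter windows, from 250 bases before to 50 after the start, were given by RefSeq (GRCm38.p6) for 8 of the 10 genes, with no entry for *Ctsb* and *Ctsh*. They were searched on both strands for TAATT, the core read by many homeodomain proteins, and for CACGTG, an E-box of the kind bound by the lysosomal regulator TFEB, which was added after the sequences were read. TAATT was in 0 of the 9 windows of these genes and in 27% of all 32851 windows. CACGTG was in 4 of the 9 (*Ctsa*, *Ctsd*, *Ctsf* and *Ctsl*) and in 7.15% of all windows. In *Ctsa* it was only in the window of a second start within the gene, and the *Ctsl* window also lies within the annotated gene. The 250 bases before the start are printed for *Ctsd* (chr7:142387828-142388077, minus strand), the most abundant cathepsin, with CACGTG in capitals.
Ctsd: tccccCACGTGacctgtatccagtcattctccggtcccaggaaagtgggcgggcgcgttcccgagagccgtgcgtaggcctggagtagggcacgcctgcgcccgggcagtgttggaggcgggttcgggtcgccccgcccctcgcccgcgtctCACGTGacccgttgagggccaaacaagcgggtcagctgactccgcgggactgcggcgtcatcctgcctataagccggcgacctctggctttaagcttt
Counted from the start, the matches begin at −245 and −98. These are matches of letters in a window, and no binding was measured.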

How the data were processed

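RNA-seq libraries of mTFP-positive cells from 4 mice, 2 control and 2 *Rax* iCKO, were grouped by the genotype in the labels. Single-end reads were aligned to mm10 by the authors, whose deposited files give 1 FPKM value for each gene, and the submitters' processing notes name TopHat2 2.1.1, Bowtie2 2.2.8, SAMtools 0.1.18 and Cuffdiff 2.2.1. The libraries were made with SMART-Seq HT and Nextera XT, and the labels and the study's methods differ on the RNA isolation. Strand use in counting is not given in the sources used here.

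The deposited FPKM were used without rescaling, on log2(FPKM + 1), with limma 3.58.1 in R 4.3.3 (eBayes with a trend) over the 12363 genes averaging 1 FPKM or more, adjusted by Benjamini-Hochberg. Whether the libraries of a group are separate litters is not given, and p-values measure only the spread between these libraries. With 2 against 2, an exact permutation test cannot go below p = 0.333, so none was run on single genes. The fit was tested on simulated data.

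The members and lists were chosen with earlier results of these data known. Named are the 10 cathepsins and *Rax*. Also named are, per pathway list, any gene called, the 2 highest in mean FPKM and the 2 with the largest log2 fold change, per marker list the 2 highest and those at 0, 3 neighbours of *Ctsh* on each side, and the 5 genes most like it. Some of these are given without values, and 1 is not reported here.

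Depth was estimated from 472 low-valued genes with 1 annotated transcript, after 200 bases were taken off its length. For *Rax* iCKO 7983 the quartiles over these genes were 8530000 and 9440000 mapped reads. Read numbers per gene are estimates from the length of the principal transcript, and no count test was run. Tried as alternatives were a block for the run of mouse numbers, leaving out each library, quantile normalization, equal medians, a fit without the variance trend, pseudocount 0.1, and a minimum mean of 5 FPKM or none.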

Additional observations from a re-analysis of the deposited data

How the results depend on the processing

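The log2 fold change of *Ctsh* (−1.53) was −1.45 after quantile normalization and between −1.57 and −1.50 when each library was left out in turn. The count of cathepsins with both *Rax* iCKO values below control (6) was 1 after quantile normalization and between 6 and 7 without 1 library. That of cathepsins more than 2-fold lower (1) was 2 without *Rax* iCKO 7983, when *Ctss* joined *Ctsh*, and between 1 and 2 over the libraries left out. Of the values of the other tested cathepsins under the alternatives, 6 turned direction, 1 moved beyond the spread between libraries and 57 did neither. Quantile normalization turned *Ctsb* to 0.0177 and *Ctsd* to 0.0654, and moved *Ctsl* to −0.28. Over the libraries left out, *Ctsa* ranged from −0.26 to 0.006 (above 0 without *Rax* iCKO 7983), *Ctsf* from −0.15 to 0.28 (below 0 without *Rax* iCKO 3914, and −0.09 without control 7984) and *Ctss* from −1.76 to 0.69 (above 0 without *Rax* iCKO 3914). *Ctsc* ranged from −0.83 without *Rax* iCKO 7983 to −0.12 without *Rax* iCKO 3914, and *Ctsz* from −0.89 to −0.20 for the same libraries. The cause was not tested.

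Over all genes, limma called 2 lower and 1 higher. A mean FPKM of at least 5 (9174 genes) and no filter (17865 genes) each gave 0 lower and 0 higher. Equal medians gave 3 higher and quantile normalization 2 higher. Leaving out 1 library, with a lone library assumed to vary like the others, gave 5 to 12 lower and 7 to 14 higher. With the run of mouse numbers (7983 with 7984, 3914 with 3911) as a replicate block, 47 genes were lower and 24 higher, and 1 pathway gene, *H2-Ab1*, was called instead of 0. The labels do not say what the numbers mark. Deviations from the group mean correlated between mice 7983 and 7984 at r = 0.503 across 12363 genes, which are not independent. With 2 mice per group, the other run gives the same value by construction. The count of pathway genes called ranged from 0 to 0 over the libraries left out. Values under a few FPKM rest on few reads, and 2 libraries per group limit every comparison.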
